A study of Homo sapiens with 9 samples.

Results

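Alpha-arrestins are adaptor proteins that bring ubiquitin ligases to receptors and nutrient transporters at the cell surface, and TXNIP is their best-known glucose-responsive member. MondoA (encoded by MLXIP) and ChREBP (MLXIPL) are basic helix-loop-helix transcription factors that pair with MLX and respond to phosphorylated sugars. TXNIP and ARRDC4 are their classic targets. In turn, TXNIP binds reduced thioredoxin and promotes removal of the glucose transporters GLUT1 and GLUT4 from the membrane, which links sugar sensing to uptake. The levels of 8 genes of this circuit were followed here: the alpha-arrestins TXNIP, ARRDC1, ARRDC2, ARRDC3 and ARRDC4, and the factors MLXIP, MLX and MLXIPL. They are 8 of the 41041 genes in the deposited table and were taken by matching Ensembl identifiers to these symbols. The genes were chosen on earlier results of these same libraries, so their values below are a description, without a test.

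The samples were SW480 cells, an established human colorectal adenocarcinoma line, grown for 48 h at 1% oxygen. Of 3 groups with 3 biological replicates each, the hypoxic control received no drug, a second group received 25 µM sulforaphane (SFN), an isothiocyanate from cruciferous vegetables, and the remaining group received SFN together with 5-fluorouracil, a pyrimidine antimetabolite (SFN+5-FU). For the combination no dose is given in the sources used here. All 9 libraries come from hypoxic cells of a single line, and no normoxic or 5-FU-only library was used here, so 5-FU can be read only on top of SFN. Expression is in FPKM, fragment counts scaled by the length of the transcript and the size of the library. The number of fragments behind each library is unknown, and its FPKM values summed to between 259184 and 272235. Because these are bulk cultures, fewer cells expressing a gene and less RNA per cell cannot be told apart.

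The library labelled SFN replicate 2 stood apart from its group. Across 12662 genes with a mean of at least 1 FPKM, the root-mean-square difference in log2(FPKM + 1) between it and the 3 SFN+5-FU libraries was 0.184 to 0.192, close to that among the SFN+5-FU libraries (0.188 to 0.192). Its distance from SFN replicates 1 and 3 was 0.401 to 0.435, while these differed from each other by 0.228. It is kept in the group its label gives. Whether that label or the treatment of this culture matches the group was not tested, and every SFN mean and the contrast of SFN+5-FU with SFN rest on it. Fitted SFN differences are therefore given with and without it. Leaving it out was chosen on these same values, so calls of SFN+5-FU against SFN made without it are description only.

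The epithelial identity of the line was checked on 8 markers. EPCAM stood at 114 to 144 FPKM in all libraries, whereas the colorectal antigen gene CEACAM5 was near 0. With SFN+5-FU against control 6 of the 8 fell, beside 28.0% of all tested genes, while CEACAM5 was too low to be tested. Those that fell included the adhesion gene CDH1, from 14.2 ± 1.39 to 5.18 ± 0.594 FPKM (log2 difference -1.30), and VIL1, from 3.84 ± 0.135 to 0.817 ± 0.0379 FPKM (-1.41). The summed epithelial level, mostly keratins, was 2552 to 2595 FPKM in control, 1767 to 2382 with SFN and 1707 to 1722 with SFN+5-FU. Summed markers of leukocytes, fibroblasts, endothelium and hepatocytes (9 genes) were 2.92 to 3.55, 3.30 to 6.45 and 6.57 to 10.0 FPKM in the same order, and 4 of them (PTPRC, COL1A2, DCN and ALB) were at or under 0.01 FPKM in every library. The markers within that sum moved in opposite directions. CD68, a macrophage marker that epithelial lines can also express, went from 0.563 ± 0.0723 in control to 7.49 ± 1.73 with SFN+5-FU (SD, n = 3). COL1A1 went down from 1.75 ± 0.222 to 0.720 ± 0.0346 and VWF from 0.777 ± 0.0306 to 0.167 ± 0.0208 FPKM. CD3E and PECAM1 stayed at or under 0.13 FPKM in every library. The part of these shifts in the values below was not tested.

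The promoter sequences show which of the genes carry the letters that MLX-containing dimers are known to read. A carbohydrate response element is a pair of E-box-like motifs. It was searched on both strands as CACGNG, any 5 bases and CACGNG again, 17 bases in all, from 250 bases before to 50 bases after each RefSeq transcription start (GRCh38.p14; the build behind the FPKM values is not given in the sources used here). All 8 genes matched, with 11 windows. TXNIP alone among them held the element, in the window of its upstream start, at bases 88 to 72 before the start. Of 35116 human windows of this length, 20 (0.0570%) held it. The stretch below lies on the minus strand at chr1:145996641-145996729, in the promoter of TXNIP. It is shown for this element, and capitals mark the element and a CCAAT box on each strand (ATTGG where it lies on the other).
TXNIP: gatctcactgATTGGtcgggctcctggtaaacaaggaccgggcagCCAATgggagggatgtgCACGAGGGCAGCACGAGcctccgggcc
The ARRDC4 promoter, on the plus strand at chr15:97960483-97960650, is shown because its level followed that of TXNIP most closely among the 8 genes. It held no match to the 17 letters but carried the E-box CACGTG at 210 bases before the start and 3 CCAAT boxes, in capitals.
ARRDC4: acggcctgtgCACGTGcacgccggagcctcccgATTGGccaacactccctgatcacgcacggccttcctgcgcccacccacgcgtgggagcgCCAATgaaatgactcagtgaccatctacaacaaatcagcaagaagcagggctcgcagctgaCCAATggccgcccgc
The letters CACGTG, which read the same on both strands, were found in 2 of the 11 windows (ARRDC4 and MLX) and in 7.26% of all windows. CCAAT, on either strand, was found in 7 of the 11 and in 34.6% of all windows. No match of one motif in the 11 windows overlapped a match of another. These matches describe letters only. No binding was measured here, and the absence of a match in these windows says nothing of sites elsewhere.

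**Figure D1:**
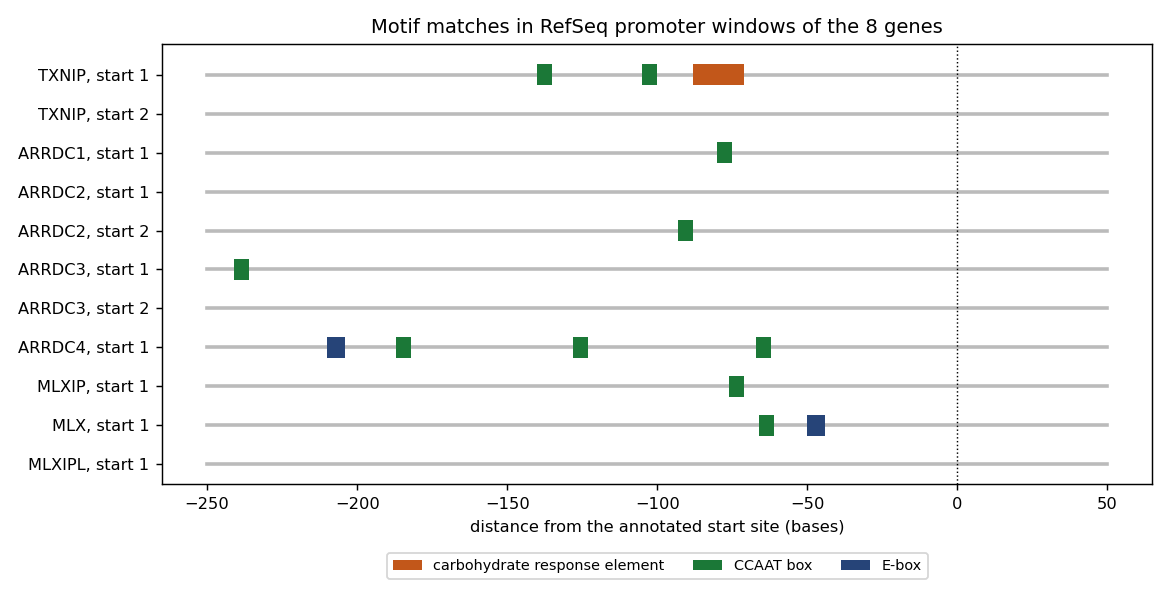
Positions of the 3 motifs in the 11 promoter windows of the 8 genes, from 250 bases before to 50 bases after the RefSeq start (horizontal axis, bases). Among these windows the 17-base carbohydrate response element appears once, in TXNIP, at 88 to 72 bases before the start.

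With SFN+5-FU against control, the arrestin genes with the largest differences were TXNIP and ARRDC4. TXNIP (ENSG00000265972) stood at 20.39, 20.38 and 14.39 FPKM in the control libraries, at 13.10, 165.03 and 15.14 in SFN replicates 1, 2 and 3, and at 175.52, 161.32 and 154.76 in the SFN+5-FU libraries. SFN replicate 1 lay just under the control range and SFN replicate 3 inside it, while SFN replicate 2 stood among the SFN+5-FU libraries. The group means were 18.4 ± 3.46, 64.4 ± 87.1 and 164 ± 10.6 FPKM (SD, n = 3), and the SFN mean describes none of its libraries. With SFN+5-FU the mean level was 8.91 times that of control. It was 11.6 times that of SFN replicates 1 and 3, whose mean was 0.768 of control. On the log2(FPKM + 1) scale, which understates changes of low genes, the fitted difference from control was 3.10 (SE 0.771) with SFN+5-FU and 0.81 (SE 0.771) with SFN. Without SFN replicate 2 these became 3.10 (SE 0.124) and -0.35 (SE 0.139), so the sign for SFN turned with that library.

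ARRDC4 (ENSG00000140450), the closest relative of TXNIP in regulation by MondoA and likewise an adaptor linked to glucose transporters, was much less abundant. Its FPKM was 1.83, 1.81 and 1.33 in control, 1.54, 8.37 and 2.07 with SFN, and 8.73, 8.19 and 8.14 with SFN+5-FU. The range of SFN replicates 1 and 3 overlapped control, and SFN replicate 2 again sat with the combination. Means were 1.66 ± 0.283, 3.99 ± 3.80 and 8.35 ± 0.327 FPKM. The combined treatment gave 5.04 times the control mean and 4.63 times the mean of SFN replicates 1 and 3. The fitted log2 difference of SFN+5-FU from control was 1.82 (SE 0.397), and that of SFN from control was 0.66 with all libraries and 0.08 without SFN replicate 2.

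ARRDC2 (ENSG00000105643), an alpha-arrestin less studied than the others, showed a like division of libraries over a smaller span. It stood at 4.88, 5.11 and 4.85 FPKM in control, 4.96, 8.74 and 4.99 with SFN, and 9.51, 9.62 and 9.07 with SFN+5-FU. SFN replicates 1 and 3 lay inside the control range, and SFN replicate 2 lay just under the lowest SFN+5-FU library. The SFN+5-FU mean of 9.40 ± 0.291 was 1.90 times the control mean of 4.95 ± 0.142 FPKM. The log2 difference was 0.81 (SE 0.166) between them. For SFN against control it was 0.24, or 0.01 without SFN replicate 2.

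ARRDC3 (ENSG00000113369), which binds beta-adrenergic receptors and is known as a suppressor of breast tumour growth, differed from these 3 genes. Its level was 8.34, 7.63 and 7.08 FPKM in control, 3.98, 8.24 and 3.78 with SFN, and 7.70, 10.63 and 8.19 with SFN+5-FU. Here SFN replicates 1 and 3 were low, at 0.505 of the control mean, and the SFN+5-FU libraries overlapped control. SFN replicate 2 lay inside both ranges. The mean with SFN+5-FU (8.84 ± 1.57 FPKM) was 2.28 times that of SFN replicates 1 and 3. With every library, the log2 difference of SFN from control was -0.52 (SE 0.230), and without SFN replicate 2 it was -0.83 (SE 0.119). SFN+5-FU differed from control by 0.17 and from SFN by 0.69, or by 1.00 without that library.

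ARRDC1 (ENSG00000197070), which helps bud extracellular vesicles from the plasma membrane, was lower in all 6 treated libraries. It stood at 20.33, 20.47 and 20.40 FPKM in control, 17.07, 16.55 and 16.51 with SFN, and 15.51, 15.08 and 17.39 with SFN+5-FU. The treated ranges overlapped each other and neither reached control. The log2 differences from control were -0.27 with SFN and -0.34 with SFN+5-FU (SE 0.0647 each), and the first stayed at -0.27 without SFN replicate 2. An antisense RNA, ARRDC1-AS1, overlaps the gene and was listed at 5.68 to 7.44 FPKM. The library kit marks strand, but whether quantification used strand is not given in the sources used here, and reads of the pair cannot be told apart. The remaining family member, ARRDC5, was listed at 0 in 8 libraries and at 0.03 FPKM in SFN+5-FU replicate 1.

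**Figure D2:**
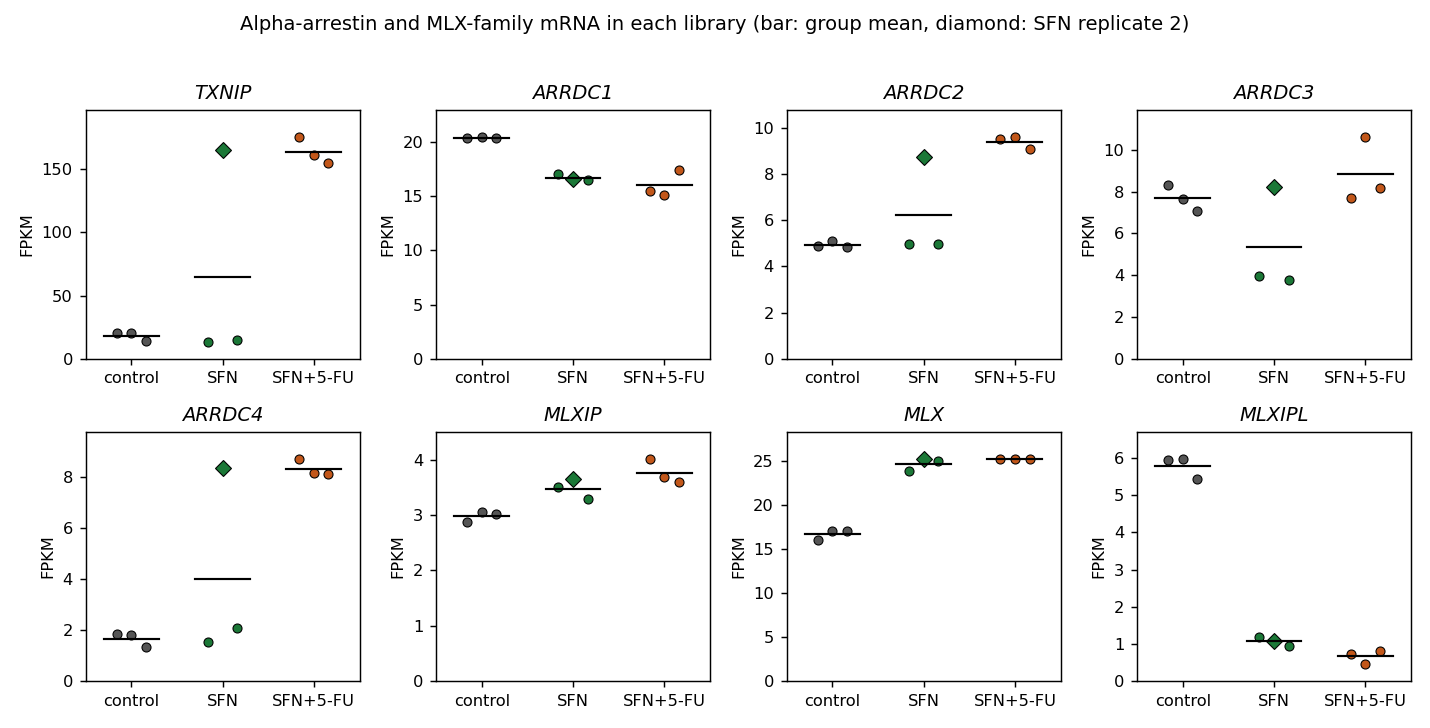
FPKM of the 8 genes (vertical axis, linear, its own scale in each panel) in the 9 libraries, by group, with 1 point per library, a bar at each group mean and a diamond for the library labelled SFN replicate 2. For TXNIP that library stands at 165.03 FPKM, inside the SFN+5-FU values of 154.76 to 175.52, whereas for MLXIPL it stands at 1.07, between the other SFN libraries.

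Among the transcription factors, MLX (ENSG00000108788), the obligate partner of MondoA and ChREBP, was higher in every treated library. Its FPKM was 16.03, 17.02 and 17.05 in control, 23.88, 25.24 and 24.98 with SFN, and 25.23, 25.24 and 25.19 with SFN+5-FU. No treated library overlapped control, and the 2 treated groups met at their upper end. The SFN+5-FU mean was 1.51 times that of control. The log2 differences from control were 0.54 (SFN) and 0.57 (SFN+5-FU), each with an SE of 0.0553, and 0.52 for SFN without SFN replicate 2. MLX overlaps the opposite-strand gene PSMC3IP, a recombination factor. PSMC3IP was listed at 3.68 to 5.59 FPKM in control, at 6.22, 29.43 and 8.56 with SFN, and at 28.93 to 30.95 with SFN+5-FU. The division of reads between them rests on the strand handling left unstated above, and the part of PSMC3IP in the MLX values was not tested.

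MLXIP (ENSG00000175727), which encodes MondoA itself, moved little. It stood at 2.88, 3.05 and 3.02 FPKM in control, 3.51, 3.65 and 3.29 with SFN, and 4.02, 3.69 and 3.60 with SFN+5-FU. All 6 treated libraries lay above control, and the treated ranges overlapped. With SFN+5-FU the mean was 1.26 times that of control. Fitted log2 differences from control were 0.17 with SFN, 0.14 without SFN replicate 2, and 0.26 with SFN+5-FU (SE 0.0696). These small values depend on scaling. With median-of-ratios scaling they were 0.12 with SFN and 0.17 with SFN+5-FU, and with quantile normalization 0.21 and 0.28.

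MLXIPL (ENSG00000009950), which encodes ChREBP, the main glucose-responsive lipogenic factor of liver and gut, went the other way. Control libraries held 5.95, 5.98 and 5.43 FPKM, SFN libraries 1.18, 1.07 and 0.95, and SFN+5-FU libraries 0.72, 0.45 and 0.81. The 3 groups did not overlap. SFN replicate 2 stood between the other SFN libraries in this gene, unlike in TXNIP, ARRDC2, ARRDC3 and ARRDC4. The control mean was 8.77 times that of SFN+5-FU and 5.43 times that of SFN replicates 1 and 3. On the log2 scale SFN lay at -1.72 and SFN+5-FU at -2.04 from control (SE 0.0976), and the former stayed at -1.72 without SFN replicate 2. A pseudocount of 5 in place of 1 reduced these to -0.83 and -0.93, since the treated levels are low. SFN+5-FU differed from SFN by -0.32 with and without that library.

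**Figure D3:**
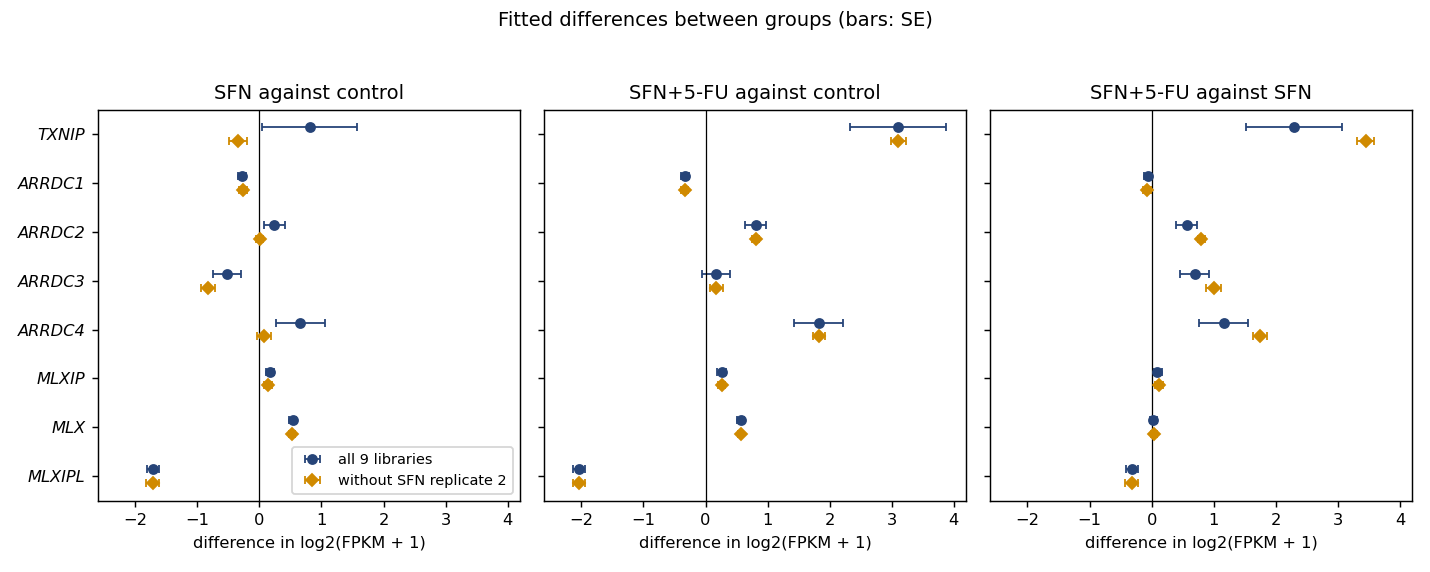
Fitted log2(FPKM + 1) differences of the 8 genes in the 3 contrasts (horizontal axis), with error bars of 1 SE, from all libraries and from the fit without SFN replicate 2. The TXNIP value for SFN against control moves from 0.81 to -0.35 when that library is left out, and the MLXIPL value stays at -1.72.

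FPKM is scaled by transcript length, so levels can be ordered between genes within a group. In control the mean fell in the order ARRDC1, TXNIP, MLX, ARRDC3, MLXIPL, ARRDC2, MLXIP and ARRDC4. Neighbouring ranges overlapped only for ARRDC1 with TXNIP and for TXNIP with MLX. With SFN+5-FU, TXNIP led at 164 FPKM, followed by MLX and ARRDC1, and the range of ARRDC3 (7.70 to 10.63 FPKM) took in those of ARRDC2 and ARRDC4, which did not overlap each other. MLXIP and MLXIPL came last there. With SFN the mean of TXNIP also led, but its range of 13.10 to 165.03 FPKM took in those of MLX and ARRDC1. The summed level of the 8 genes was 73.55 to 81.45 FPKM in control, 69.22 to 236.89 with SFN and 227.15 to 246.94 with SFN+5-FU. TXNIP made up most of it in the last group.

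Counts of called genes give the background for these differences. A limma fit over all 12662 tested genes called a gene at a Benjamini-Hochberg adjusted p of 0.05, and all 8 genes passed its filter of a mean of 1 FPKM. SFN against control called 50.0% of all genes, 27.5% higher and 22.5% lower. With median-of-ratios scaling the latter shares were 23.5% and 26.1%. Of the 8, MLX was among the higher ones and ARRDC1 and MLXIPL among the lower. Without SFN replicate 2 the shares were 56.9%, 30.0% and 26.9%, and ARRDC3 joined the lower genes. SFN+5-FU against control called 66.2%, 38.3% higher and 28.0% lower, or 32.1% and 32.8% with that scaling. TXNIP, ARRDC2, ARRDC4, MLXIP and MLX were among the higher genes and ARRDC1 and MLXIPL among the lower. SFN+5-FU against SFN called 1 gene (0.00790%) and none of the 8, although 5 of the 8 and 31.4% of all genes had an unadjusted limma p under 0.05. Without SFN replicate 2 it called 51.2%, 29.8% higher and 21.4% lower. TXNIP, ARRDC2, ARRDC3 and ARRDC4 were then among the higher genes and MLXIPL among the lower. That library was left out for its likeness to the SFN+5-FU libraries in these same values, so these calls are no independent support. The contrasts share libraries, and as the 8 genes were chosen with their differences known, nothing is read from how these counts compare with the background.

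Genes whose pattern was most like that of an arrestin were found by the root-mean-square difference in log2(FPKM + 1) over the 9 libraries, each gene centred on its own mean, among 11993 other genes with a symbol. This measure is a description, and all genes share the same libraries. For TXNIP the closest were CSF3 (0.393), IL11 (0.554), SEMA7A (0.616), IGHE (0.625) and PSMC3IP (0.654), and ARRDC4 was at rank 9 (0.741). CSF3, which encodes the cytokine G-CSF, stood at 0.43 to 0.46 FPKM in control, 0.84, 10.35 and 1.04 with SFN, and 9.23 to 12.14 with SFN+5-FU. As in TXNIP, SFN replicate 2 stood with the combination, at a far lower level. Unlike in TXNIP, SFN replicates 1 and 3 lay above control, where CSF3 was under the pseudocount of 1. For ARRDC4 the closest were RASSF1 (0.0853), ATF3 (0.0893), IGHA1 (0.149), SLC44A2 (0.150) and UPF3B (0.164). Seen from ARRDC4, TXNIP at the same 0.741 was only at rank 3157, behind ARRDC2 (rank 418, 0.513) and MLX (rank 3075, 0.7375). The closeness of ARRDC4 and TXNIP thus depends on which gene is taken as the reference. ATF3, a stress-induced transcription factor, was 4.54 to 5.09 FPKM in control, 4.15, 19.09 and 5.77 with SFN, and 19.50 to 21.91 with SFN+5-FU. Assignment of reads to IGHE and IGHA1 is uncertain, since immunoglobulin constant genes share sequence.

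The genes nearest to ARRDC2 lay within 0.0347 to 0.0497 of it. They were BRD2, MED9, SEC31A, TENM3 and RNF14. BRD2, a bromodomain protein that binds acetylated histones, stood at 20.84 to 21.23 FPKM in control, 20.76, 35.42 and 20.94 with SFN, and 35.43 to 37.22 with SFN+5-FU. ARRDC3 was closest to MAP1B (0.0865), KAT2B (0.112), MXD1 (0.119), MXD4 (0.119) and YPEL5 (0.126). MXD1, a partner of MAX that opposes MYC, stood at 6.65 to 7.50 FPKM in control, 4.12, 8.69 and 4.12 with SFN, and 9.04 to 9.88 with SFN+5-FU. As in ARRDC3, SFN replicates 1 and 3 were the lowest libraries, but for MXD1 the combination lay above control. MLX was nearest to ZC3H4 (0.0251) and ELAC2 (0.0267), and MLXIPL to QPRT (0.105), ESPN (0.112), LRP2 (0.112), USH1C (0.119) and NR4A1 (0.121).

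**Figure D4:**
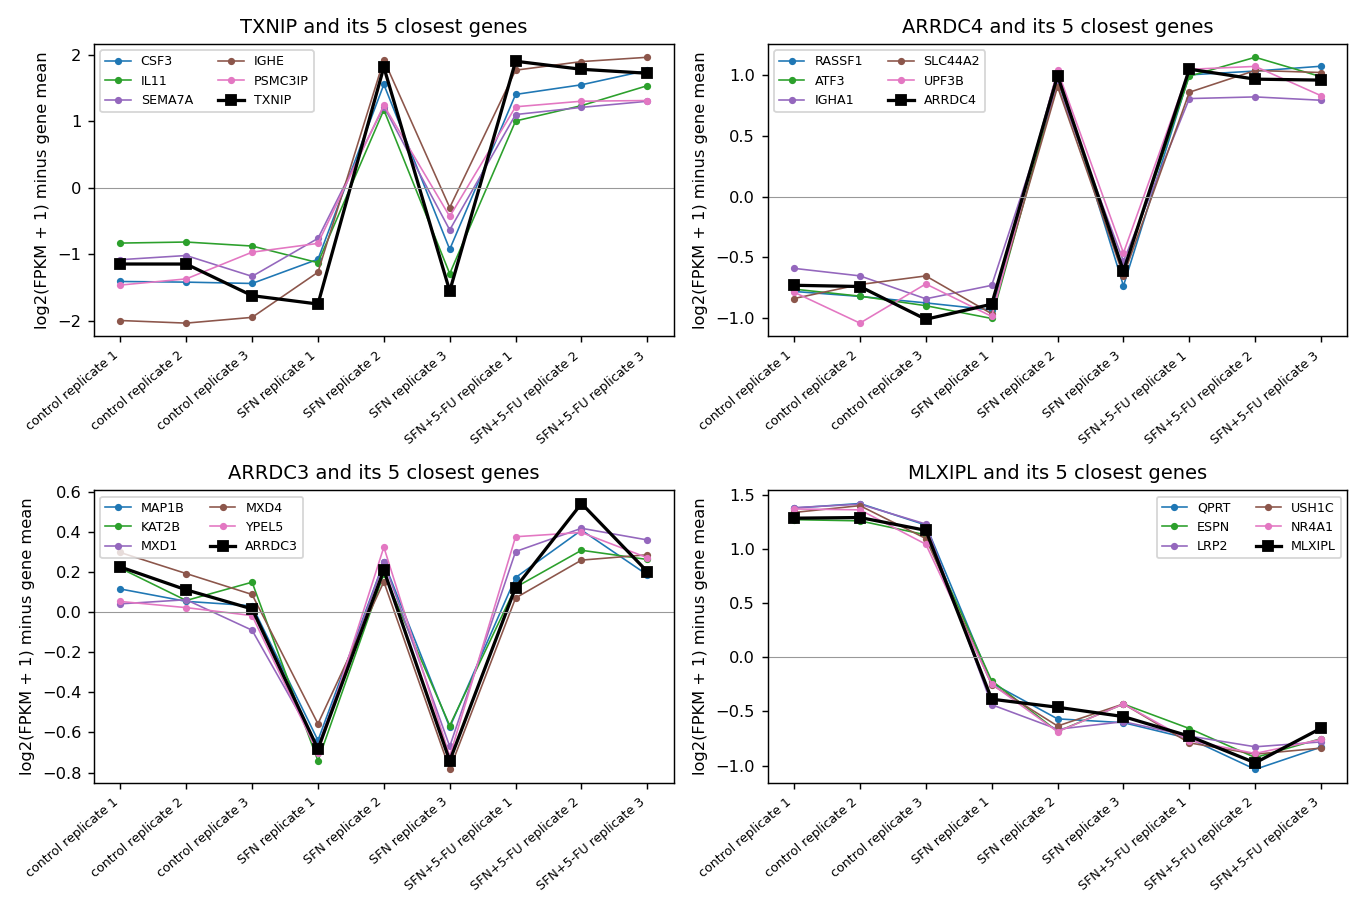
Values of log2(FPKM + 1) minus the mean of each gene (vertical axis) across the 9 libraries for TXNIP, ARRDC4, ARRDC3 and MLXIPL (black) and the 5 genes closest to each (colours). For TXNIP and ARRDC4 SFN replicate 2 stands at the SFN+5-FU level, for ARRDC3 SFN replicates 1 and 3 stand below control, and for MLXIPL all 6 treated libraries do.

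Among other targets of MondoA and ChREBP more fell than rose. Of 19 listed, 12 were expressed enough to be tested. With SFN+5-FU against control, 9 fell and 2 rose, beside 28.0% and 38.3% of all tested genes, and the median log2 difference was -0.57, against 0.10 over all genes. The lipid desaturase SCD fell from 193 ± 11.9 to 41.9 ± 1.30 FPKM (-2.18). BHLHE40, a clock-linked repressor, fell from 93.7 ± 5.86 to 40.7 ± 0.412 FPKM (-1.18). PFKFB3, which makes the activator of phosphofructokinase, fell from 13.5 ± 0.570 to 6.15 ± 0.631 FPKM (-1.02). The 2 that rose, named after their values were seen, were KLF10 (0.60), a TGF-beta-inducible repressor, and the fatty acid elongase ELOVL6 (0.36). KLF10 stood at 20.67 to 21.80 FPKM in control, 21.33, 30.55 and 24.38 with SFN, and 31.50 to 34.76 with SFN+5-FU, so SFN replicate 2 was again nearest to the combination. With SFN against control 6 fell, among them SCD (-1.84), BHLHE40 (-0.79) and hexokinase 2 (HK2, -0.53), and ELOVL6 rose (0.28), beside 22.5% and 27.5% of all genes. These values were -1.76, -0.61, -0.35 and 0.21 without SFN replicate 2. The median was -0.39, against 0.05 over all genes, and -0.22 without SFN replicate 2. The HK2 call was lost without control replicate 1 or 2, and the ELOVL6 call held in only 5 of 18 alternatives. Without SFN replicate 2, SFN+5-FU against SFN gave 8 lower and 1 higher, the latter KLF10 at 0.50, beside 21.4% and 29.8% of all genes. The median was -0.34, against 0.05 over all genes. With all libraries it called none of them.

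Glucose entry genes, which include the transporters that TXNIP acts on, were lower. HK2 is counted both here and among the MondoA and ChREBP targets above. Of 14 tested, 11 fell with SFN+5-FU (median -0.88), beside 28.0% of all genes, and 8 fell with SFN, beside 22.5% (median -0.51, or -0.32 without SFN replicate 2, at the same count). SLC2A1, which encodes GLUT1, fell from 487 ± 31.3 FPKM in control to 148 ± 4.07 with SFN+5-FU (-1.71). With SFN it fell by 1.09 on the log2 scale (-0.86 without SFN replicate 2), with 282.69 and 253.08 FPKM in replicates 1 and 3 and 163.86 in replicate 2. SLC2A3 (GLUT3) fell from 587 ± 35.3 to 233 ± 18.1 with SFN (-1.33, or -1.27 without SFN replicate 2) and 204 ± 8.59 FPKM with SFN+5-FU (-1.52). The sodium-glucose cotransporter SLC5A1 changed by -1.15 with SFN (-1.04 without that library) and by -1.54 with SFN+5-FU. TXNIP and SLC2A1 thus stood in opposite order across the 3 SFN libraries, and their relation was not tested.

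The thioredoxin list holds the thioredoxins, of which TXN is the partner that TXNIP binds, and their reductases. It also holds NLRP3, which was too low to be tested. With SFN 3 of 5 tested genes rose and 1 fell (median 0.34, or 0.35 without SFN replicate 2), beside 27.5% and 22.5% of all genes. With SFN+5-FU 3 rose and 2 fell (median 0.33), beside 38.3% and 28.0%. TXN, the cytosolic thioredoxin, was 207 ± 14.2 FPKM in control and rose with SFN (0.94) and SFN+5-FU (442 ± 26.8 FPKM, 1.09). Its reductase TXNRD1 went from 25.1 ± 1.96 to 63.1 ± 15.7 (1.27) and 79.6 ± 2.16 FPKM (1.63). TXNRD3 fell, by 0.82 and 0.96 on the log2 scale. The SFN differences without SFN replicate 2 were 0.91 for TXN, 1.11 for TXNRD1 and -0.71 for TXNRD3. Every SFN library lay at 381.58 to 409.09 FPKM for TXN and the control libraries at 197.76 to 223.35, so the groups did not overlap, whereas TXNIP in SFN replicates 1 and 3 did not exceed its highest control library.

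Ubiquitin ligases and ESCRT components, which work with alpha-arrestins in sorting membrane proteins, were called about as often as genes at large. Of 11 tested, 4 rose and 1 fell with SFN (median 0.12, or 0.08 without SFN replicate 2, at the same counts), where 50.0% of all genes were called. With SFN+5-FU 4 rose and 3 fell (median 0.07), where 66.2% were. VPS4B, an ATPase of the ESCRT pathway, rose by 0.43 and 0.59, and the ligase WWP1 fell by 0.40 and 0.48 on the log2 scale. NEDD4L rose with SFN (0.44). When SFN replicate 2 was left out, the SFN differences were 0.38 for VPS4B, -0.36 for WWP1 and 0.59 for NEDD4L. VPS4A, the paralog of VPS4B, rose with SFN+5-FU (0.51).

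The MYC, MAX and MXD network shares the E-box with MLX, and MLX also pairs with MXD proteins. With SFN 2 of its 9 tested genes rose and 4 fell (median -0.37), beside 27.5% and 22.5% of all genes. Without SFN replicate 2, 2 rose and 5 fell (median -0.60), beside 30.0% and 26.9%. With SFN+5-FU 2 rose and 3 fell (median 0.01), beside 38.3% and 28.0%. MYC rose from 46.6 ± 2.40 FPKM to 93.8 ± 2.91 with SFN (0.99) and 92.5 ± 3.87 with SFN+5-FU (0.97). MXI1, a MAX partner that opposes MYC, fell from 7.67 ± 1.08 to 3.79 ± 0.287 (-0.85) and 3.06 ± 0.160 FPKM (-1.09). MYCL changed by -0.64 and -0.76. In the fit without SFN replicate 2, MYC changed by 1.01, MXI1 by -0.80 and MYCL by -0.60 with SFN. Without SFN replicate 2, SFN+5-FU against SFN called 4 higher, with MXD1 at 1.03 and MXD4 at 0.88, and 2 lower, beside 29.8% and 21.4% of all genes. MXD1 and MXD4 are the MXD genes closest to ARRDC3 above, and that closeness was measured over the same libraries.

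**Figure D5:**
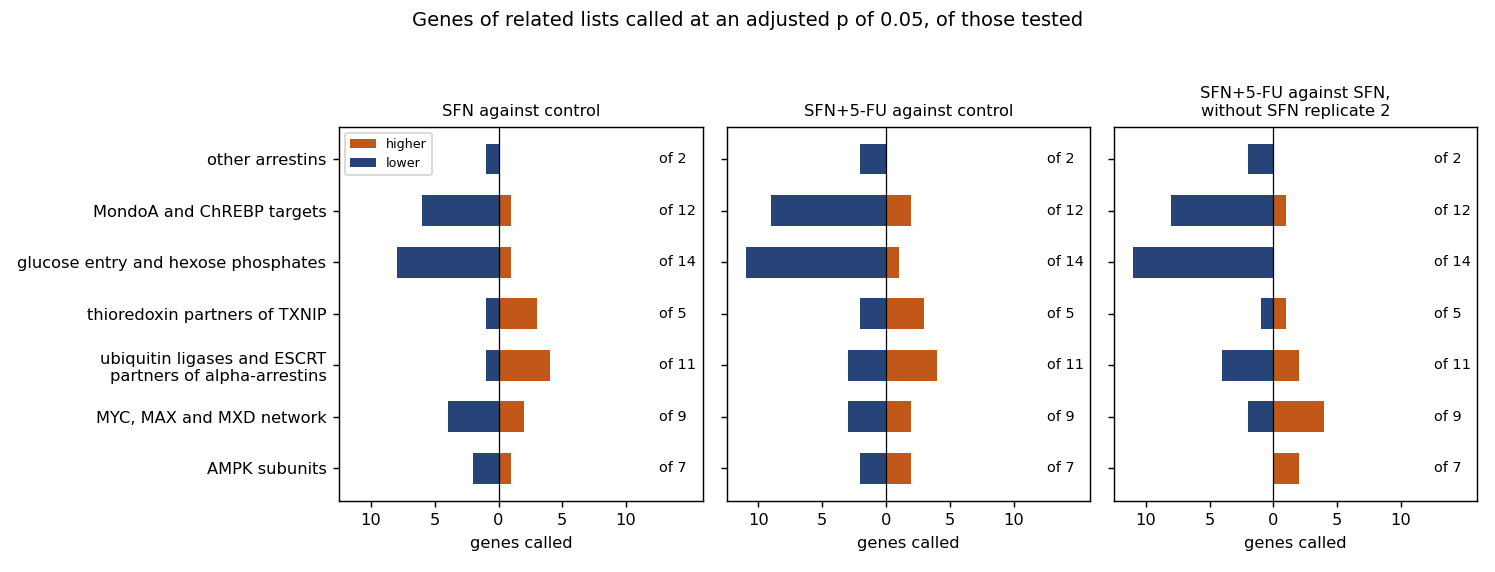
Number of genes of each list called higher (to the right) or lower (to the left) at an adjusted p of 0.05 in 3 contrasts, with the number tested at the right edge of each panel; the last contrast is without SFN replicate 2. Of 14 glucose entry genes, 8, 11 and 11 were lower in the 3 panels, beside 22.5%, 28.0% and 21.4% of all tested genes.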

How the data were processed

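Polyadenylated RNA of 9 libraries was sequenced from dUTP-stranded libraries, per the labels' protocols. FPKM per gene was deposited by the authors, and the submitters' processing notes name fastp, StringTie and edgeR, without versions. Aligner, genome build, annotation and strand setting: not given in the sources used here. FPKM is given to 2 decimals, so depth is unknown. Names were found for 41002 of 41041 identifiers, 29784 of them with a symbol. Genes were kept at a mean of 1 FPKM or more and taken as log2(FPKM + 1). All libraries entered a single limma 3.58.1 fit (R 4.3.3) with a trended prior variance (residual degrees of freedom 6, prior 3.2), a group term and Benjamini-Hochberg adjustment within each contrast, and the method was tested on simulated data. Motifs were searched in RefSeq windows with Python 3.11.15.

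The members and lists were chosen with earlier results of these data known, so no set test was run. Named are all members, up to 3 called genes of largest change per list and contrast, and the 5 genes nearest to each member that reached a difference of 0.5; others are marked as named later. As alternatives, the low-value filter, the pseudocount, the scaling between libraries, the variance model, a replicate block and the set of libraries were varied. The p-values measure the spread between these libraries, which the labels call biological replicates. A result of the glucose entry list is not reported here.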

Additional observations from a re-analysis of the deposited data

How the results depend on the processing

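Of the 447 values that the alternatives gave for the 8 genes, 422 moved by less than the replicate SD of the main fit. That SD includes SFN replicate 2, so it is a wide yardstick for TXNIP, ARRDC2, ARRDC3 and ARRDC4. For TXNIP, SFN+5-FU against control, the SE was 0.771 with that library and 0.124 without it. No difference past the threshold changed sign or lost its call (186 values). The sign of TXNIP for SFN against control turned without SFN replicate 2 (-0.35) and with library weights (-0.28). The sign of MLX for SFN+5-FU against SFN turned with median-of-ratios scaling (-0.01) and quantile normalization (-0.04). A filter at a mean of 5 FPKM dropped ARRDC4, MLXIP and MLXIPL, and a pseudocount of 5 lowered the ARRDC4 difference of SFN+5-FU from control from 1.82 to 1.00. Over all genes, SFN against control called 6333, and 3888 with that filter, which tests fewer genes. SFN+5-FU against control called 8387, and 4903 with it. SFN+5-FU against SFN called 1 gene with all libraries, 7432 with library weights, and 0 with only the 6 libraries compared. Leaving out each library in turn gave 4845 to 7200, 7287 to 9461 and 0 to 6478 calls in the 3 contrasts, and 6478 came without SFN replicate 2. The cause of these moves was not tested.

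With the replicate number as a block (replicate block), the 3 contrasts called 6038, 8151 and 0 genes. Deviations from the group means correlated above 0.1 in 1 of 9 pairs that share a number (range -0.143 to 0.107). For different numbers it was 3 of 18 (range -0.247 to 0.182). The SFN deviations are shaped by SFN replicate 2, so this check cannot decide whether the numbers pair the libraries. Median-of-ratios scaling shifted the median log2 difference of all genes by -0.06, -0.09 and -0.03 in the 3 contrasts, and quantile normalization by less. Precision is limited by 3 libraries a group, by the unknown depth, and by the 2 decimals of FPKM for MLXIPL in treated cells.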

Other observations

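Beta-arrestins, which end signalling by G-protein-coupled receptors, were lower with SFN+5-FU than in control. ARRB1 fell from 8.21 ± 0.546 FPKM in control to 3.82 ± 0.280 with SFN+5-FU (log2 difference -0.93) and ARRB2 changed by -0.33. These are the 2 of 5 listed arrestins that were tested, and 28.0% of all tested genes fell in that contrast. With SFN, ARRB1 stood at 5.56 ± 1.52 FPKM (-0.52), or -0.32 without SFN replicate 2. That call was lost when control replicate 1 or 2 was left out, and when low values were not filtered. AMPK, the energy-sensing kinase that phosphorylates TXNIP, showed small changes in subunits or in its activator STK11. Of 7 tested genes, 1 rose and 2 fell with SFN (median -0.07, against 0.05 over all genes), where 50.0% of all genes were called, and the median was -0.13 without SFN replicate 2, at the same counts. With SFN+5-FU 2 rose and 2 fell (median 0.01), where 66.2% were called. The catalytic subunit PRKAA1 changed by 0.37 and 0.36, and PRKAB1 rose by 0.52 with SFN+5-FU. Another subunit, PRKAG2, fell in both contrasts, at -0.25 and -0.28. STK11 changed by -0.20 and -0.29, and the first of these calls held in only 9 of 19 alternatives.

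The 17-base carbohydrate response element was found in promoter windows of 20 genes, of which 15 were tested, TXNIP among them. With SFN+5-FU against control, 7 rose and 2 fell, beside 38.3% and 28.0% of all genes. MTHFS, a folate enzyme, rose by 1.06, KCTD5 by 0.81 and the nuclear transport GTPase RAN by 0.43 on the log2 scale. The collagen prolyl hydroxylase P4HA1 fell by 0.78 and RCN3 by 0.91. Except for TXNIP, these genes were named after their values were seen.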
